A study of Mus musculus with 6 samples.

Results

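The genes described here are 8 components of the SUMO conjugation machinery: the modifiers Sumo2 and Sumo3, the activating enzyme subunits Sae1 and Uba2, and the ligases Pias1, Pias2, Pias3 and Pias4. They were taken by gene name from a deposited table of 19739 genes, each name matched a single row, and all 8 were among the 10985 genes high enough to test. The SUMO conjugating enzyme (E2) was not analysed here. The series used bone marrow mesenchymal stromal cells (BMSCs), cultured as primary mouse cells and given an adeno-associated virus (AAV) with FTO, in a form labelled WT or in a form labelled 3KR. FTO is a demethylase that removes N6-methyladenosine (m6A) from RNA, and the series title names its SUMOylation, the differentiation of BMSCs and bone loss in inflammatory bowel disease. The WT group (OE_WT) and the 3KR group (OE_3KR) had 3 input libraries each, sequenced from poly(A) RNA without m6A enrichment. Cells of both groups therefore carried an FTO vector, and cells without one were not analysed here. The labels do not spell out 3KR and give no mouse strain, age, vector promoter, dose or time, nor the mouse or culture behind each library. The spread that the p-values rest on is that of the 3 libraries and could be technical alone.

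SUMO proteins are small ubiquitin-like modifiers that are joined to lysines of other proteins and change their partners, location or stability. The modifier is activated by an E1 enzyme, a dimer of SAE1 and UBA2, passed to a single E2 and attached to the target, often with the help of an E3 ligase such as a PIAS protein. SUMO2 and SUMO3 are nearly identical as mature proteins and form chains. PIAS proteins were first described as inhibitors of activated STAT transcription factors, and in mesenchymal cells SUMO ligases act on many transcription factors and chromatin proteins. Transcript levels, given below in FPKM (fragments adjusted for the length of the transcript and the size of the library), do not measure the proteins or SUMO conjugation itself.

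Facts of the whole table touch the results. On the log2(FPKM + 1) scale the median tested gene stood 0.15 higher in 3KR, a ratio of 1.11, so each change was also fitted after 3 other scalings of the libraries: to the same sum, to median ratios, and by quantiles. Fto, carried by both vectors, measured 258 ± 9.84 FPKM in the WT libraries and 443 ± 24.8 in those of 3KR (SD, n = 3), 1.71-fold higher. FPKM per gene does not separate transcripts of the vector from those of the cells' own Fto. The form of FTO and the amount of Fto RNA differ together between the groups, so their parts cannot be told apart. Of the markers fixed for cell types, 11 stromal genes summed to 3368 to 3490 FPKM per library in WT and 2007 to 2031 in 3KR. These did not move together: 3 of the 11 were called higher and 6 lower as deposited, and the same numbers under all 4 scalings. Of all tested genes 46.7% were called higher and 14.0% lower as deposited, and 21.5% and 13.9% under all 4 scalings. The sum was carried by the matrix gene Col1a1 (means of 1785 and 787 FPKM) and the chemokine Cxcl12 (409 and 70.3), while Lepr, the leptin receptor, was 4.59-fold higher in 3KR and Cd44 was 2.01-fold higher, all 4 named after their values were seen. The 11 macrophage and monocyte markers in the table summed to 10.7 to 11.9 FPKM in WT and 1.86 to 3.23 in 3KR. All 11 means were lower in 3KR. In WT the sum was mostly Mpeg1 (mean of 6.79 FPKM, against 0.854 in 3KR). Only 2 of the 11 were high enough to test: Mpeg1 was called lower and Cd68 was not (limma adjusted p = 0.0836). The groups overlapped for Cd68 (means of 1.16 and 0.700 FPKM) and for Csf1r (0.269 and 0.221). The 6 endothelial markers summed to 5.17 to 6.31 FPKM in WT and 1.94 to 2.17 in 3KR. The endothelial sum was mostly Tek (means of 5.14 and 1.46 FPKM), the 1 marker of that list high enough to test, whereas Kdr was at 0.139 and 0.335 FPKM, higher in each 3KR library than in any of WT, and Vwf at 0.0595 and 0.0579. Of the B cell, erythroid and neutrophil lists only 2 markers each were in the table. Each of these lists summed to at most 0.154 FPKM in any library, and Cd79b and Hba-a1 were listed at 0 throughout. Of 3 T cell markers 0 were in the table. The 2 megakaryocyte markers in it summed to 0.712 to 1.36 FPKM in WT and 0.771 to 1.21 in 3KR. The part of these markers in the results below was not tested, and in bulk RNA fewer cells of a type and less RNA per cell cannot be told apart.

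Sequences upstream of the start are shown for Sumo2 and Sumo3, the paralogs whose ratio differed between the groups in every library, and for Pias3, the member with the largest difference. They come from RefSeq on GRCm38.p6, which held an entry for 5 of the 8 genes, and end just before the annotated gene at its outermost start, printed 5′ to 3′ on the gene's strand. Capitals mark the GC box GGGCGG or its reverse complement CCGCCC. Sumo3 has 3 annotated starts and Pias3 has 2.
Sumo2, chr11:115536231-115536480, minus strand: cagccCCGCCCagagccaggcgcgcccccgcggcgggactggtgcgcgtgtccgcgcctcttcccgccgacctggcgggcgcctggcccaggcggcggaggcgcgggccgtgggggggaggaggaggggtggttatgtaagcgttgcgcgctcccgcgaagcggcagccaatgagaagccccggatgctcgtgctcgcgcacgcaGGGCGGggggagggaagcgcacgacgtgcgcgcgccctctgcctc
Sumo3, chr10:77605847-77606096, plus strand: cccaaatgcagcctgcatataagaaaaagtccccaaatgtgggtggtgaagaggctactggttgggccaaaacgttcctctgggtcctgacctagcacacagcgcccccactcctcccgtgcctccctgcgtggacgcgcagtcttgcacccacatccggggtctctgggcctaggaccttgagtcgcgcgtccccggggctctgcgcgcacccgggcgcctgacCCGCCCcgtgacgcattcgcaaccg
Pias3, chr3:96696125-96696360, plus strand: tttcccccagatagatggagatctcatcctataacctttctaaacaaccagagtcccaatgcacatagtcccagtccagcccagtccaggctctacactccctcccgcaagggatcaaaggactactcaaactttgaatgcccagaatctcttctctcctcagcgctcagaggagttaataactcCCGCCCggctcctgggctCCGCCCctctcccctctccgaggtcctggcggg
The window of Sumo2 held 2 GC boxes and 37 CpG dinucleotides, that of Sumo3 1 GC box and 20 CpG, and the 236-base window of Pias3 2 GC boxes and 7 CpG. Uba2 had 1 GC box in 189 bases and Pias1 had 5 in 250. A GC box occurred in 32.7% of all 32851 RefSeq promoter windows of 250 bases, in 30.8% of those of 236 and in 22.6% of those of 189, and the median window of 250 bases held 6 CpG. The letters CCAAT were found once each in Sumo2 and Pias3, on either strand, against 33.8% of windows of 250 bases. The E box CACGTG, the TATA box TATAAA, the cyclic AMP element TGACGTCA and the STAT site TTCNNNGAA were searched on both strands and not found in these 5 windows, which says only that those letters are not there.

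Transcripts of the 8 genes covered a wide range of levels, and FPKM, being per length, allows their comparison. In WT the order was Uba2, Pias3, Sumo2, Pias2, Sae1, Sumo3, Pias4 and Pias1, from 159 to 3.18 FPKM, and neighbours in this order did not overlap across the 3 libraries. The order of the means was the same in 3KR, from 177 to 3.86 FPKM, but there the libraries of Pias2 and Sae1 overlapped, at means of 18.4 and 18.1. By its mean over all libraries Uba2 lay at percentile 97.0 of the tested genes and Pias1 at percentile 25.1. On the deposited scale the summed FPKM of the 4 PIAS genes was 53.8 ± 1.35 in WT and 71.6 ± 0.133 in 3KR (SD, n = 3). The ratio was 1.33 and the groups did not overlap. On that scale the median tested gene stood at a ratio of 1.11, and 51.2% of all tested genes were higher in 3KR without overlap. Pias3 made up 54.3% of the sum in WT and 57.9% in 3KR.

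**Figure D1:**
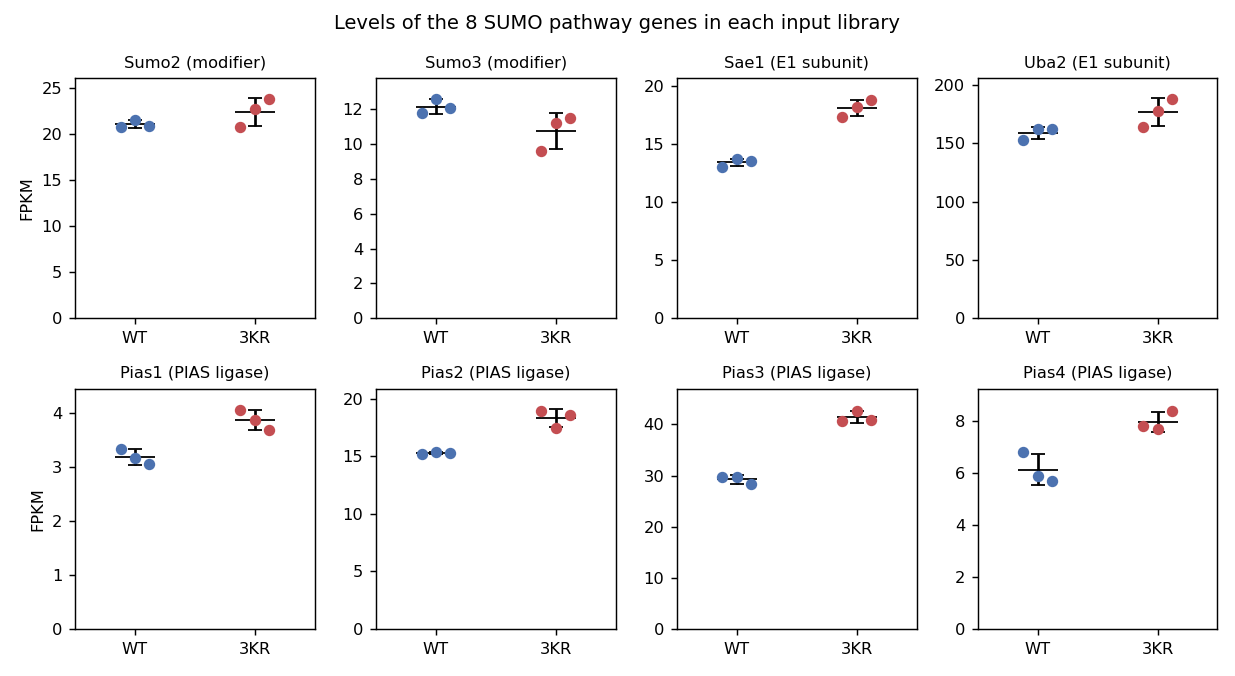
FPKM of the 8 genes in each of the 6 input libraries (points), with the mean and SD of 3 libraries (line and bar) for WT and 3KR; each panel has its own axis from 0. The groups are apart in every panel except that of Sumo2, with 3KR lower for Sumo3 and higher for the other 6 genes.

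As deposited, 6 of the 8 genes were called higher in 3KR and 0 lower by limma at an adjusted p under 0.05. Of all tested genes 46.7% were called higher and 14.0% lower in the same fit. At an unadjusted p under 0.05 the members gave 6 higher and 1 lower. Shares of all genes called, here and below, are for the adjusted p and are no background for counts at an unadjusted p. The count of 6 followed the scaling: 4 were called higher after rescaling to the same sum (33.5% of all genes), 4 after quantile normalization (28.6%) and 2 after median ratio scaling (21.6%). Each of these 3 scalings also called 1 member lower, Sumo3, where 18.1%, 19.9% and 24.1% of all genes were called lower. The 2 genes called higher under all 4 scalings were Sae1 and Pias3, and none was called lower under all 4, against 21.5% and 13.9% of all tested genes. The groups did not overlap for 6 members that were higher and 1 that was lower, against 51.2% and 15.5% of all tested genes.

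**Figure D2:**
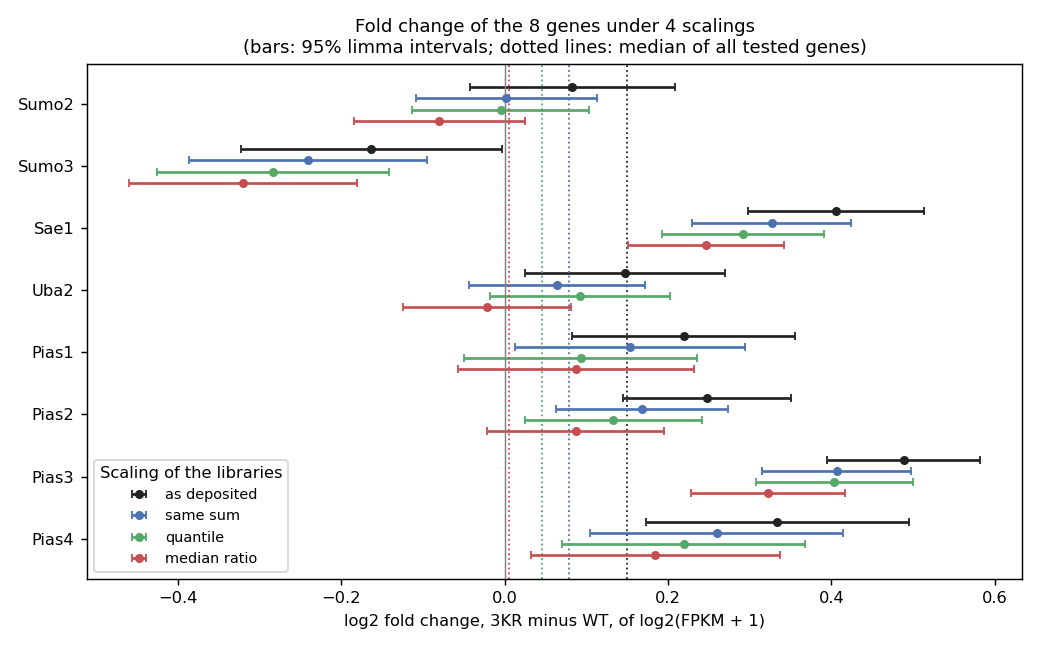
Log2 fold change (3KR minus WT, of log2(FPKM + 1)) of the 8 genes under 4 scalings of the libraries, with 95% limma intervals; dotted lines give the median of all tested genes under each scaling. Intervals of Sae1, Pias3 and Pias4 lie above 0 under all 4 scalings and those of Sumo3 below 0, while Uba2 as deposited lies on the median gene.

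Neither modifier was called as deposited. Sumo2 was at 20.8, 21.5 and 20.8 FPKM in WT replicates 1, 2 and 3, and at 20.7, 22.7 and 23.7 in those of 3KR. Its groups overlapped, since 3KR replicate 1 was the lowest of the 6 libraries. The log2 difference was 0.08 ± 0.05 (SE), with a 95% interval from -0.04 to 0.21 (limma adjusted p = 0.216) and was -0.07 relative to the median gene. Without 3KR replicate 1 it was 0.13 and called (limma adjusted p = 0.0318), and after median ratio scaling it was -0.08 (0.187).

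Sumo3, the close paralog of Sumo2, was the only member with a lower mean in 3KR. It was at 11.8, 12.6 and 12.04 FPKM in WT and at 9.57, 11.2 and 11.5 in 3KR. All 3 libraries of 3KR lay below all 3 of WT, and 3KR replicate 1 was again the lowest. The log2 difference on the deposited scale was -0.16 ± 0.07 (limma adjusted p = 0.0716), which misses the threshold, with a 95% interval from -0.32 to -0.004. Relative to the median gene it was -0.31. It was -0.24 after rescaling to the same sum (limma adjusted p = 0.0133), -0.28 after quantile normalization (0.00620) and -0.32 after median ratio scaling (0.00315). Of all tested genes, 3.84% likewise were called lower under those 3 scalings and not as deposited. After median ratio scaling the WT libraries averaged 12.9 ± 0.425 FPKM and those of 3KR 10.1 ± 0.783 (SD, n = 3).

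The proportion of the modifiers is a ratio within a library and does not depend on how libraries are scaled to a common total. Sumo2 exceeded Sumo3 by 1.77, 1.71 and 1.73 times in WT and by 2.17, 2.02 and 2.07 times in 3KR. Each 3KR library had a higher ratio than each WT library. The log2 ratio was 0.26 higher in 3KR (exact permutation p = 0.1, two-sided, adjusted p = 0.12 over 6 ratios), where 0.1 is the smallest p that 3 against 3 libraries can give. RefSeq lists 4 pseudogenes named for Sumo2 and 1 named for Sumo3, none of which is a row of this table. How any fragments that match both a gene and such a pseudogene were counted is not given in the sources used here, so the levels of Sumo2 and Sumo3 are uncertain.

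Of the E1 enzyme's subunits, Sae1 was called higher under all 4 scalings and Uba2 as deposited only. Sae1 encodes the subunit that takes part with UBA2 in the adenylation of SUMO. Its level was 13.0, 13.7 and 13.5 FPKM in WT and 17.3, 18.2 and 18.8 in 3KR. The lowest 3KR library lay well above the highest of WT. Sae1 rose 1.35-fold, a log2 difference of 0.41 ± 0.05 (limma adjusted p = 1.642e-04), and by 0.26 relative to the median gene. It was called higher under all 4 scalings, at 0.25 on the log2 scale once median ratio scaling was applied (limma adjusted p = 0.00168), and when any library was left out (0.38 to 0.44).

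Uba2 encodes the subunit that carries the catalytic cysteine, which holds the activated SUMO. It was at 153, 162.3 and 162.2 FPKM in WT and at 164, 178 and 188 in 3KR. The groups were separated by the small gap between WT replicate 2 and 3KR replicate 1. Its log2 difference of 0.15 ± 0.05 passed the threshold as deposited (limma adjusted p = 0.0404) but equalled that of the median gene, to which the difference was -0.003. The call was lost under each of the 3 other scalings, where the difference was 0.06, 0.09 and, after median ratio scaling, -0.02 (limma adjusted p = 0.725). It was also lost without any of the 3 WT libraries (0.121, 0.0647 and 0.0661 without replicates 1, 2 and 3) and without 3KR replicate 2 (0.101) or 3 (0.126).

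The ratio of Uba2 to Sae1 was 11.8, 11.9 and 11.99 within the WT libraries and 9.46, 9.79 and 10.01 within those of 3KR. Every 3KR library had the lower ratio. The log2 ratio changed by -0.28 (exact permutation p = 0.1, two-sided, the smallest possible, adjusted p = 0.12).

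**Figure D3:**
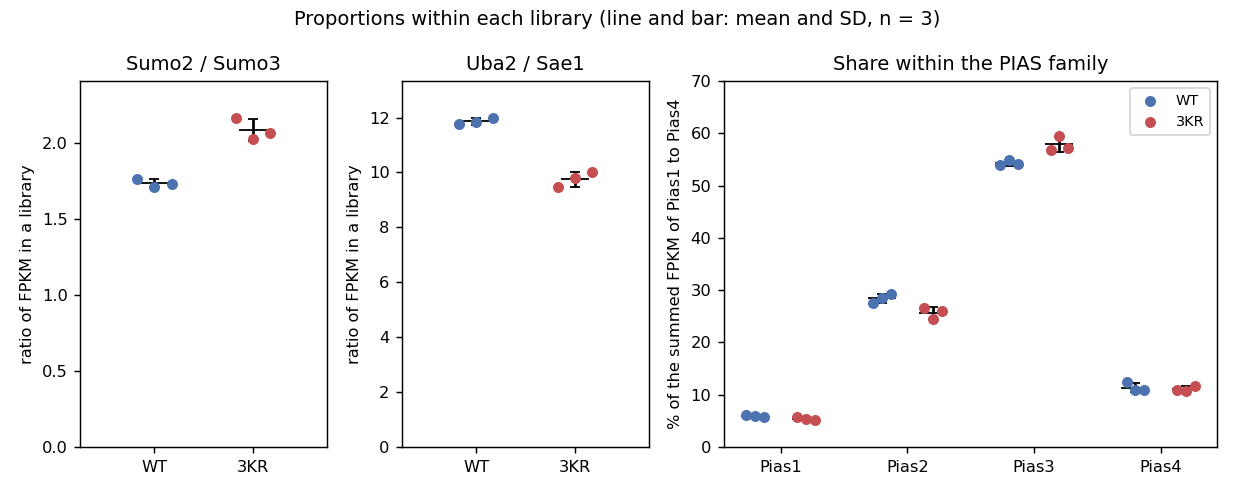
Ratios of FPKM within each library for Sumo2 to Sumo3 and Uba2 to Sae1, and the share of each PIAS gene in the summed FPKM of the 4, with points for the 3 libraries of WT and of 3KR and lines and bars for mean and SD; axes start at 0. Sumo2 to Sumo3 and the share of Pias3 are higher in 3KR, Uba2 to Sae1 and the shares of Pias1 and Pias2 are lower, and the share of Pias4 overlaps.

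All 4 PIAS ligase genes were called higher in 3KR as deposited, where 46.7% of all tested genes were, and Pias3 differed most. Pias3 was also the only one of the 4 called under all 4 scalings, since Pias1, Pias2 and Pias4 were not called after median ratio scaling. Pias3, known as a partner of STAT3 and of the transcription factor MITF, was at 29.7, 29.7 and 28.3 FPKM in WT and at 40.6, 42.7 and 41.0 in 3KR. The groups lay far apart for their spread. Pias3 rose 1.42-fold, by 0.49 ± 0.04 on the log2 scale (limma adjusted p = 2.586e-05), which is 0.34 above the median gene and at percentile 91.2 of the log2 differences of all tested genes. After median ratio scaling it was 39.0 ± 1.33 FPKM in 3KR against 31.0 ± 0.737 in WT, or 0.32 on the log2 scale (limma adjusted p = 3.401e-04). Nudt17, whose annotation overlaps that of Pias3, was low, with means of 0.743 ± 0.210 FPKM (WT) and 1.19 ± 0.0352 FPKM (3KR; SD, n = 3). Fragments of the overlap cannot be told apart where the counting did not use strand, which is not given in the sources used here.

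Pias4, or PIASy, a ligase known for the modification of chromosomal proteins and the repression of several transcription factors, came next. It was at 6.80, 5.86 and 5.70 FPKM in WT and at 7.81, 7.67 and 8.40 in 3KR. WT replicate 1 stood above the other WT libraries and still below all of 3KR. Pias4 rose 1.30-fold as deposited, by 0.33 ± 0.07 on the log2 scale (limma adjusted p = 0.00381). After median ratio scaling the difference was 0.18 and just missed the threshold (limma adjusted p = 0.0511), while the same sum and quantile scalings kept the call.

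Pias2, or PIASx, a coregulator of transcription factors, was at 15.2, 15.4 and 15.3 FPKM in WT and at 19.0, 17.5 and 18.6 in 3KR. The WT libraries were nearly equal and all below those of 3KR. It rose 1.20-fold as deposited (log2 difference 0.25 ± 0.04, limma adjusted p = 0.00179), and its difference after median ratio scaling was 0.09 (0.166). The same sum and quantile scalings kept the call (limma adjusted p = 0.0156 and 0.0468).

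Pias1, a ligase known to restrain NF-kB at inflammatory promoters, had the lowest level of the 8. It was at 3.33, 3.16 and 3.04 FPKM in WT and at 4.05, 3.86 and 3.67 in 3KR. The groups did not overlap as deposited. It rose 1.22-fold (log2 difference 0.22 ± 0.06, limma adjusted p = 0.0127), but was not called under the other 3 scalings, with differences of 0.15, 0.09 and 0.09 (limma adjusted p from 0.0659 to 0.292). The pseudocount understates the change of a gene this low.

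Pias3 took a larger share of the family in each 3KR library than in any of WT. Its share of the summed FPKM of the 4 genes was 54.0%, 54.9% and 54.1% in WT and 56.9%, 59.5% and 57.2% in 3KR. The mean shares were 54.3 ± 0.529% and 57.9 ± 1.45% (SD, n = 3), a difference of 3.53 percentage points. The share of Pias2 was 28.4 ± 0.804% in WT and 25.6 ± 1.11% in 3KR, and that of Pias1 5.90 ± 0.134% and 5.39 ± 0.270%, both without overlap between the groups. For these 3 shares the exact permutation p was 0.1, two-sided, the smallest possible, and 0.12 adjusted over the 6 ratios. The share of Pias4, 11.4 ± 0.868% and 11.1 ± 0.542%, overlapped between the groups (exact permutation p = 0.7, adjusted p = 0.7). The shares of a family sum to a fixed whole, so a higher share of Pias3 lowers the others by construction.

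Other genes of SUMO metabolism were read in the same fit, in which 46.7% of all tested genes were called higher and 14.0% lower as deposited, and 21.5% and 13.9% under all 4 scalings. All 9 SUMO proteases were tested, and 5 were called higher and 0 lower as deposited by limma (5 and 0 at an unadjusted p under 0.05), with a median log2 difference of 0.19 against 0.15 for all genes. Senp1, the protease that matures and removes SUMO broadly, rose from 65.4 ± 1.16 to 77.1 ± 3.91 FPKM (SD, n = 3, limma adjusted p = 0.00234). Senp3 and Senp5, nucleolar proteases with a preference for SUMO2 and SUMO3, went from 4.24 ± 0.0901 to 5.34 ± 0.218 and from 8.50 ± 0.0623 to 10.1 ± 0.457. Uspl1, also on the list of SUMO proteases, went from 34.6 ± 1.17 to 40.5 ± 2.12. None of the 9 was called higher under all 4 scalings, and after median ratio scaling 0 were called higher and 2 lower. That scaling put 21.6% of all tested genes on the higher side of the threshold and 24.1% on the lower side. The other gene called higher as deposited was Senp2, and the 2 called lower after median ratio scaling were Desi1 and Desi2, deSUMOylating isopeptidases, all 3 named after their values were seen.

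Of 12 other SUMO ligases and cofactors, 7 were called higher and 1 lower as deposited, with a median log2 difference of 0.20, and 4 were higher and 1 lower under all 4 scalings. Among all tested genes these shares were 46.7% and 14.0% as deposited and 21.5% and 13.9% under all 4 scalings. Those 4 led the list. Rangap1, the nuclear pore GTPase activator that is itself a major SUMO target, rose from 21.1 ± 0.369 to 33.2 ± 2.01 FPKM (SD, n = 3, limma adjusted p = 2.072e-05). Ranbp2, the pore protein and ligase that holds SUMO-modified RANGAP1, rose from 88.0 ± 2.13 to 117 ± 4.30, Trim28, a corepressor with ligase activity, 1.28-fold, and Topors, a ligase for ubiquitin and SUMO, 1.33-fold. The member called lower was Zmiz2, a PIAS-like coactivator named after its values were seen, at 6.09 ± 0.481 and 5.22 ± 0.110 FPKM (limma adjusted p = 0.0293). Of 5 tested genes of PML bodies, nuclear structures rich in SUMO, 1 was called higher and 0 lower as deposited by limma (2 and 0 at an unadjusted p under 0.05). This was Atrx, a chromatin remodeller, at 136 ± 0.574 and 175 ± 10.8 FPKM (limma adjusted p = 2.544e-04). Pml itself was at 29.9 ± 2.85 and 32.2 ± 1.82 FPKM (0.236), Morc3 at 3.95 ± 0.0638 and 4.42 ± 0.233 (0.0727) and Daxx at 8.78 ± 0.370 and 7.998 ± 0.546 (0.114). Daxx was lower in each 3KR library than in any of WT. It was called lower under the 3 other scalings (limma adjusted p from 0.00726 to 0.0259), as were 3.84% of all tested genes that were not called as deposited.

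Enzymes and modifiers of the other ubiquitin-like systems gave a background for the E1 and SUMO genes. Of 16 tested, 8 were called higher and 2 lower as deposited, with a median log2 difference of 0.16, and 4 and 2 under all 4 scalings. Of all tested genes 46.7% were called higher and 14.0% lower as deposited, and 21.5% and 13.9% under all 4 scalings, so the counts of higher genes lay near the background. The 2 that fell were the interferon-induced modifier Isg15, from 81.9 ± 4.34 to 20.6 ± 3.49 FPKM (SD, n = 3, limma adjusted p = 2.146e-06), and its E1 enzyme Uba7, from 3.43 ± 0.614 to 1.13 ± 0.149 (7.253e-05). Uba6, an E1 for ubiquitin, rose 1.32-fold. Atg7 and Atg12 of the autophagy conjugation system, also higher under all 4 scalings, were named after their values were seen. Sae1 rose 1.35-fold in the same libraries, and its difference from Uba6 was not tested.

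**Figure D4:**
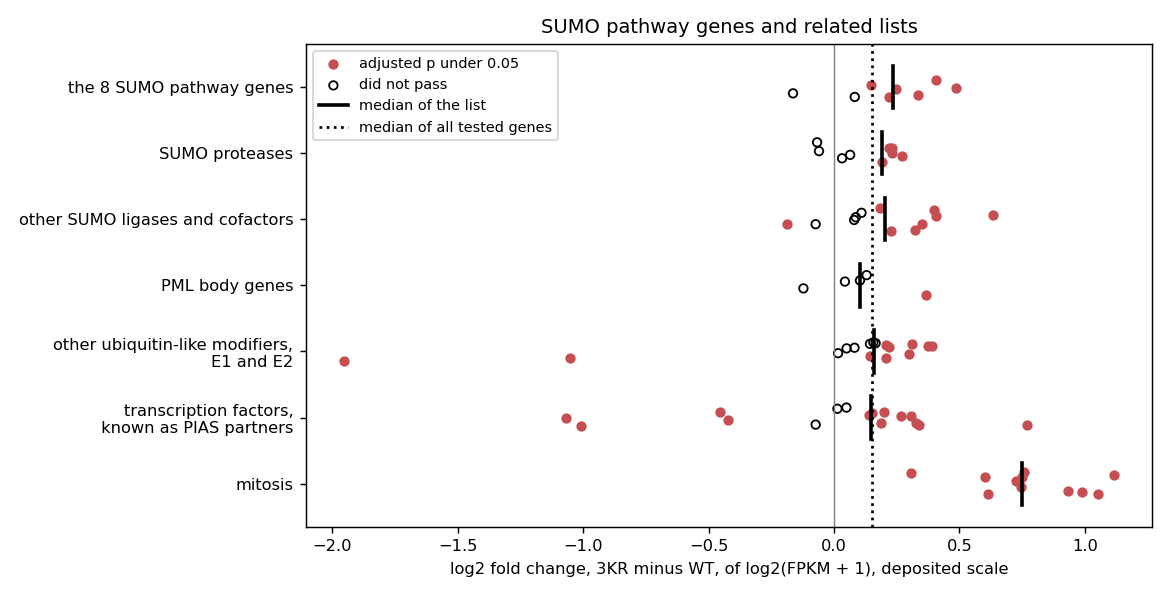
Log2 fold change (3KR minus WT, of log2(FPKM + 1), deposited scale) of each tested gene in the 8 SUMO pathway genes and 6 related lists; filled points passed a limma adjusted p of 0.05, black lines give the list median and the dotted line the median of all tested genes at 0.15. Medians of the SUMO lists lie near the dotted line, and the mitosis list lies to its right at 0.75.

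Transcription factors known to bind PIAS proteins moved in both directions. Of 16 tested, 9 were called higher and 4 lower as deposited, with a median log2 difference of 0.15, and 4 and 4 under all 4 scalings, beside 46.7% and 14.0% of all tested genes as deposited and 21.5% and 13.9% under all 4. Stat2, a transcription factor of the interferon response, fell from 46.0 ± 3.22 to 22.5 ± 2.98 FPKM (SD, n = 3, limma adjusted p = 4.120e-05). Rela, the NF-kB subunit p65, rose from 80.6 ± 0.400 to 101 ± 2.84 FPKM and Smad7, an inhibitor of TGF-beta signalling, from 3.69 ± 0.243 to 7.01 ± 0.333. Smad3, a mediator of TGF-beta signalling, also fell under all 4 scalings and Trp53 rose, both named after their values were seen. Stat3, named after its values were seen because of PIAS3, was at 49.4 and 55.1 FPKM, called higher as deposited (limma adjusted p = 0.00643) and not after median ratio scaling (0.771). Of the mitosis list, all 12 genes were called higher under all 4 scalings, against 2 of the 8 members. The median log2 difference of the mitosis list was 0.75 as deposited, where that of the members was 0.23, and with libraries scaled to median ratios it was 0.63 beside 0.09. The summed FPKM of the list was 36.6 to 39.0 in WT and 78.9 to 83.4 in 3KR. The part of cell division in the levels of Sae1 and the PIAS genes was not tested.

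For each member the tested gene with the most similar profile was found as the smallest root mean square difference of centred log2(FPKM + 1) values over the 6 libraries. No member was nearest to another member. The nearest gene was Rexo4 for Pias3 (0.0171), Cap1 for Sae1 (0.0149), Pogz for Pias1 (0.0142), Zmym2 for Pias2 (0.0136) and Ift46 for Pias4 (0.0225). It was Agpat5 for Uba2 (0.0113), Pth1r for Sumo2 (0.0149) and Hint1 for Sumo3 (0.0190). These values describe likeness over 2 groups of 3 libraries among 10985 genes, and carry no test.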

How the data were processed

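The authors deposited FPKM per gene for the 6 input libraries, per the file headers. No aligner, quantifier or annotation is given in the sources used here. Per the submitters' processing notes the build was GRCh38, which is human, although organism and symbols are mouse, so no coordinates are tied to the table. FPKM holds no read counts, so the depth of a library is unknown and no interval that needs it is given. Any scaling between libraries is unstated.

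Of 19763 rows, 24 repeated a name and the highest row by mean was kept, leaving 19739 genes. Titles gave the form of FTO and so the groups. The 10985 genes that reached 1 FPKM in 3 or more of the 6 libraries were compared as log2(FPKM + 1) with limma 3.58.1 in R 4.3.3, with an intensity trend and Benjamini-Hochberg adjustment over all of them. Figures after ± are SD for levels and SE for log2 differences. Ratios are of mean FPKM. Ratios within a library were compared by exact permutation over the libraries. The fit was tested on simulated data. The members, the lists and the naming rule (all members, up to 4 genes a list with the smallest p, and the nearest profile) were chosen with earlier results of these data known. The sequence tables were of RefSeq on GRCm38.p6, and 98.7% of tested names matched its symbols or synonyms. Alternatives were another pseudocount, other filters, 3 scalings, a replicate block, no intensity trend and leaving out each library. Some genes of the lists are counted but not reported by name here.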

Additional observations from a re-analysis of the deposited data

How the results depend on the processing

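Of 225 recomputed values, 190 were classed as unchanged in direction, side of the threshold or size. For counts this class was wide: it held 4 members called higher after rescaling to the same sum, against 6 as deposited. Some values could not move, since a replicate block leaves each log2 difference and each within-library ratio as it was. Scaling moved most of the values outside that class. Median ratio scaling left 2 of the 8 genes called higher, and 2371 of all genes higher and 2645 lower. These were 21.6% and 24.1% of all tested genes, against 46.7% and 14.0% as deposited. Of the 6 related lists together, 25 genes were called higher and 13 lower after median ratio scaling, against 42 and 7 as deposited. All 12 genes of the mitosis list were among those called higher under both scalings. Quantile normalization gave 3142 of all genes higher. Log2 differences were -0.0798 (Sumo2), -0.32 (Sumo3), -0.0215 (Uba2), 0.0870 (Pias1), 0.0872 (Pias2) and 0.18 (Pias4) after median ratio scaling, -0.24 (Sumo3), 0.0638 (Uba2) and 0.15 (Pias1) after rescaling to the same sum, and -0.00474 (Sumo2), -0.28 (Sumo3), 0.0923 (Uba2) and 0.0932 (Pias1) after quantile normalization. Each of these scalings called 1 member lower. Quantile normalization moved the log2 ratio of Uba2 to Sae1 to -0.22 and the share of Pias1 to -0.73 percentage points. Uba2, at 0.15, was not called without a filter (limma adjusted p = 0.102) or without an intensity trend (0.0697). The cause was not tested.

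With 1 library left out, log2 differences ran from 0.0415 to 0.13 (Sumo2), -0.21 to -0.0883 (Sumo3) and 0.10 to 0.20 (Uba2). Sumo3 was called without 3KR replicate 3 (limma adjusted p = 0.0459). Members called higher ran from 5 to 7 and lower from 0 to 1. The difference in the share of Pias4 ran from -0.55 to 0.26, positive without WT replicate 1. Pias1 was below an FPKM of 5 and has no value under that filter.

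Deviations of same-numbered libraries correlated at -0.015, 0.029 and -0.034 across genes, and 1 of 6 libraries correlated best with its own number. With 3 libraries per group, these values cannot show whether the numbers pair libraries by mouse or culture. A replicate block gave 4926 genes higher and 1499 lower against 5127 and 1535, and still 6 of the 8 members higher.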
